A study of Mus musculus with 34 samples.

Results

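The late state of the mouse hippocampus after whole-body irradiation and a bone marrow transplant was described by RNA-seq of 8 libraries of the 34 in the series. They were chosen by their labels: 4 hippocampus libraries of irradiated mice (GFP-BM CON) were set against 4 of mice that had received neither treatment (WT CON). GFP-BM CON mice were C57BL/6 mice irradiated once with 1000 cGy at 4 months of age and given marrow cells of CAG-EGFP donors, whose cells carry green fluorescent protein. They received no drug that depletes microglia and were taken 10 months later. WT CON mice were C57BL/6 mice that received no irradiation, no marrow and no drug. Their age at collection is not given in the sources used here. A further group of 4 hippocampus libraries, GFP-BM REPOP, came from mice that also received 600 ppm of the CSF1R inhibitor PLX3397 for 14 days from 3.5 months after irradiation, and entered the fit to estimate the spread. Irradiation and transplant were given together, so their parts in any difference cannot be told apart. Nothing in the labels says that the libraries of a group shared more than the group, and each number in a label was taken as 1 mouse.

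Ionizing radiation breaks DNA, and p53 responds by switching on genes for cell cycle arrest, repair and cell death. In the adult hippocampus the dividing progenitors of the dentate gyrus, which make new granule neurons, are the cells best known for their sensitivity to it. Whole-body irradiation also empties the marrow, and cells of the donor marrow then supply the blood and, to some extent, macrophages of the brain, whose resident macrophages are the microglia. These late readouts were therefore examined as groups of genes: DNA damage, neurogenesis, myeloid cells, other glia and vessels, and neurons. Values are FPKM, which are fragment counts scaled to transcript length and library depth, and a log2 fold change is the difference in log2(FPKM + 0.1) between GFP-BM CON and WT CON, with positive values higher after irradiation. A value followed by ± and SE is such a log2 fold change. Where 4 values are listed, they belong to replicates 1 to 4 of the group in that order. The libraries held between 17085018 and 24932322 reads in the hippocampus, and 14167 of 16389 genes were tested, those with 1 FPKM or more in 3 or more of the 12 hippocampus libraries. Of the tested genes, 491 reached this minimum only with the GFP-BM CON libraries counted, since fewer than 3 other libraries held 1 FPKM. Such a choice favours genes that are higher in GFP-BM CON, and 442 of them had a log2 fold change above 0. Of the genes named here, Abcc9, Clec7a, Col11a1, Col19a1, Fyb2, Kcnt2, Map3k15, Mrc1, Osmr, Rad50 and Zbtb20 are of that kind. They are given without adjusted p values, and their place in the counts below is favoured by that choice. Counted in the same way, 302 genes reached the minimum only with the WT CON libraries, which favours lower genes. Of these, 220 had a log2 fold change below 0. Prl is the named gene of this second kind, and some lists below hold unnamed genes of either kind. In bulk tissue, fewer cells of a type and less RNA per cell cannot be told apart.

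Some libraries stood apart before any comparison. The methods describe the recipients as male, but GFP-BM CON replicate 1 alone held reads of Y-linked genes (1380 reads, against 0 to 3 in the other 11 hippocampus libraries) and little Xist, the X-inactivation RNA of female cells (179 reads, against 1073 to 20120). The cortex and thalamus libraries with the same animal number showed the same pattern. The paper lists the samples labelled thalamus as thalamus with striatum. Markers of the striatum, a neighbouring region, summed to 538, 838, 751 and 104 FPKM in the WT CON libraries and to 181, 158, 166 and 201 FPKM in the GFP-BM CON libraries, so that 3 of 4 controls held far more striatal RNA than any irradiated library. Drd2, a dopamine receptor of striatal neurons, stood at 19.2, 27.3, 24.3 and 3.69 FPKM in WT CON and at 4.53, 5.96, 3.03 and 5.24 FPKM in GFP-BM CON. Markers of the choroid plexus, which makes cerebrospinal fluid, ranged from 35.4 to 6578 FPKM in WT CON and from 54.0 to 6445 FPKM in GFP-BM CON, without following the groups. The 9 markers of the dentate gyrus, a field of the hippocampus, summed to 96.8, 29.5, 165 and 212 FPKM in WT CON and 94.2, 154, 126 and 71.4 FPKM in GFP-BM CON, with WT CON replicate 2 the lowest. The plot of marker levels shows these sums for each library.

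**Figure D1:**
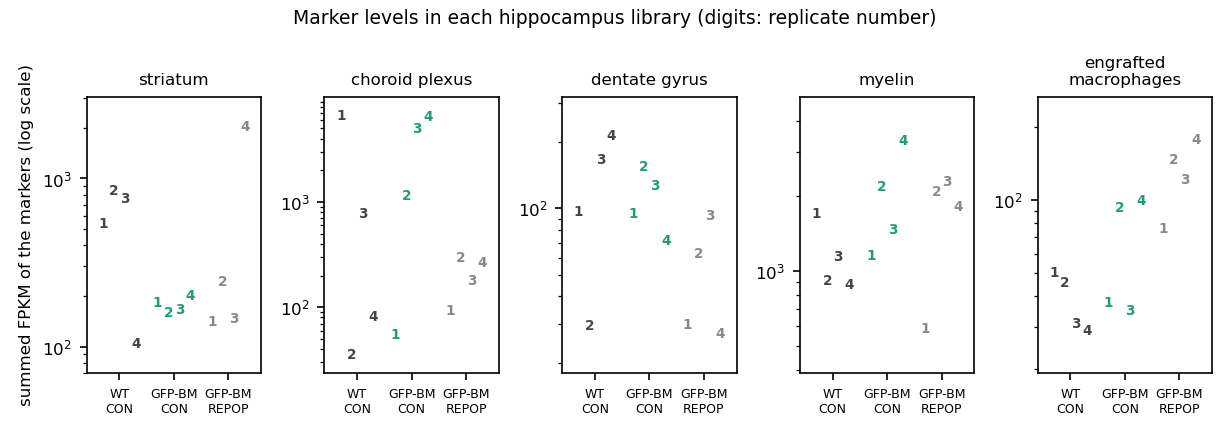
Summed FPKM of marker genes (log scale) in each of the 12 hippocampus libraries, with each library drawn as its replicate number and grouped by treatment. Striatal markers were high in WT CON replicates 1 to 3 and in GFP-BM REPOP replicate 4, choroid plexus markers varied widely inside every group, and engrafted macrophage markers were highest among the 8 compared libraries in GFP-BM CON replicates 2 and 4.

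The first question was which genes differed between irradiated and untreated hippocampus. No gene of the 14167 passed an adjusted p of 0.05 (percent called 0%), and the smallest adjusted p was 0.0717 (limma-trend with Benjamini-Hochberg adjustment over all genes tested). At an unadjusted p under 0.05 there were 3264 genes (23.0%), of which 1905 were higher (13.4%) and 1359 lower (9.59%) in GFP-BM CON, and limma-voom on the recovered reads also called 0 genes, with 3705 at an unadjusted p under 0.05. At an adjusted p under 0.10 there were 950 genes (6.71%), with 676 higher (4.77%) and 274 lower (1.93%). That looser count rested on single libraries: it was 0 when WT CON replicate 1 or 2 or GFP-BM CON replicate 2 or 3 was left out, and it was 2226 without WT CON replicate 3. At 0.05 the count was 877 without WT CON replicate 3, 610 without GFP-BM CON replicate 4, 2577 in a fit of all 9 groups of the series and 2640 with array quality weights. Without GFP-BM CON replicate 1, which held the Y-linked reads, 0 genes passed 0.05 and 2925 had an unadjusted p under 0.05. The 2 groups of 4 did not overlap for 641 genes that were higher (4.52%) and 1233 that were lower (8.70%) in GFP-BM CON. The split of higher against lower depended on the scaling: 1905 against 1359 as above became 1567 against 1989 with quantile normalization and 1749 against 1956 with voom. The plot of all genes shows that the lower genes without overlap mostly had small differences and the higher genes large ones.

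**Figure D2:**
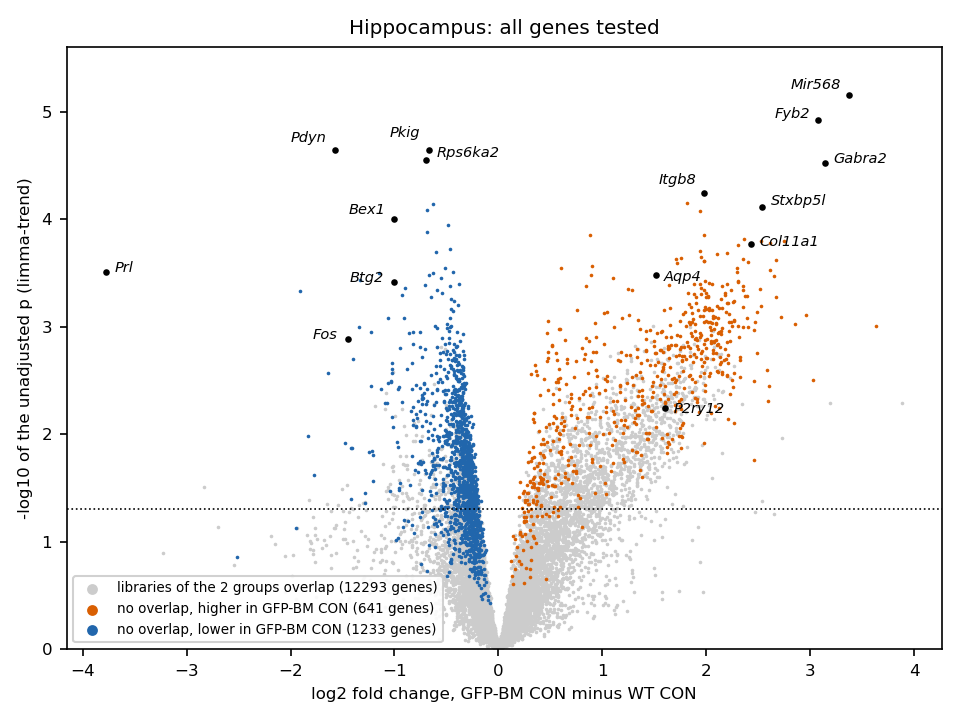
Each point is 1 of 14167 genes in the hippocampus, with the log2 fold change of GFP-BM CON minus WT CON on the x axis and -log10 of the unadjusted limma-trend p on the y axis. Orange and blue points are genes whose 4 and 4 libraries did not overlap (641 higher and 1233 lower), the dotted line marks an unadjusted p of 0.05, and no gene passed an adjusted p of 0.05.

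The direction of a gene moved with its base composition. In the decile of genes with the lowest GC content (at most 41.9% GC) the median log2 fold change was 0.76, and 56.9% of these genes were higher at an unadjusted p under 0.05. In the decile with the highest GC content (58.2% and more) the median was -0.17, and 17.4% were lower against 0.454% higher. Long transcripts went with the GC-poor genes, with a median of 0.33 in the longest decile (6871 bases and more). The 676 genes that were higher at an adjusted p under 0.10 had a median GC content of 41.5% and the 274 lower genes one of 54.5%, against 50.2% over all genes tested. The same property set the libraries apart: the GC measure of a library, the median log2 level of its GC-richest decile of genes minus that of its GC-poorest decile, was 2.92, 2.24, 1.40 and 2.16 in WT CON and 1.19, 0.765, 0.529 and 1.69 in GFP-BM CON. Over the 4 libraries of each group the mean and SD came to 2.18 ± 0.624 for WT CON and 1.04 ± 0.509 for GFP-BM CON, a difference of -1.14 with a two-sided exact permutation p of 0.0571, where the smallest p that 4 against 4 allows is 0.0286. When each library was corrected for GC content and transcript length, 25 of 13225 genes passed an adjusted p of 0.05, of which 14 were higher and 11 lower, and the median over all genes moved from -0.04 to 0.08. Of the 25, 20 did not overlap between the groups before the correction, against 13.2% of all genes, and 8 are among the genes named next. The same libraries gave the calls and the overlap, so the overlap is no separate support. Khdrbs2 and Calb1, of the smallest adjusted p, did overlap. So did Hnrnpd, Cbx5 and Tra2b, whose log2 fold changes of 0.19, 0.05 and -0.05 became -0.51, -0.67 and -0.67 with the correction. Of 125 genes named in the text that have a corrected value, 67 became smaller by over 1.5 times or turned, and 8 became larger by over 1.5 times. The part of this composition in the differences was not tested further.

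**Figure D3:**
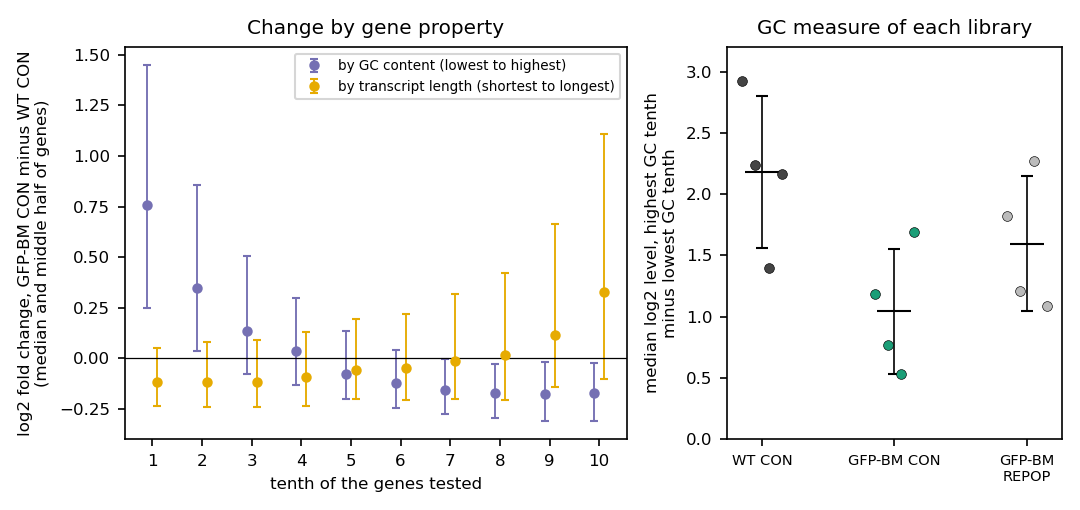
Left, the median log2 fold change (points) and the interquartile range (bars) for deciles of the genes ordered by GC content and by length of the longest transcript, falling from 0.76 in the GC-poorest decile to -0.17 in the GC-richest. Right, the GC measure of each hippocampus library with the mean and SD of each group of 4, with a mean of 2.18 in WT CON and 1.04 in GFP-BM CON.

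Prodynorphin was the gene that led the lower side. Pdyn (chr2:129686549-129699938 in GRCm38), the precursor of the dynorphin opioid peptides that granule neurons of the dentate gyrus release, stood at 32, 38.5, 30.1 and 24.8 FPKM in WT CON and at 9.5, 11.4, 10.4 and 10 FPKM in GFP-BM CON. All 4 irradiated libraries lay far below the lowest control. The means were 31.3 ± 5.68 and 10.3 ± 0.806 FPKM (SD, n = 4), and the log2 fold change was -1.58 ± 0.24 (SE; adjusted p = 0.0717). Striatal neurons make prodynorphin too, and 3 controls held striatal RNA. WT CON replicate 4, whose striatal markers were below those of the irradiated libraries, held 24.8 FPKM, the lowest value of the controls. With the striatal marker level as a covariate, chosen after seeing the data, the log2 fold change was -1.26 with an adjusted p of 0.019 by limma. Striatal RNA itself differed between the groups, so this fit cannot tell its part in the difference apart. Pdyn also passed 0.05 with only the 8 libraries compared (adjusted p = 0.0229) and without GFP-BM REPOP replicate 4 (adjusted p = 0.00229), the library with the most striatal RNA. In all, it passed in 7 of 30 alternatives and missed 0.05 in the others, with an adjusted p of 0.0577 after the GC and length correction and of up to 0.213 without GFP-BM CON replicate 3. In the cortex its log2 fold change was 0.03. In the thalamus libraries, which by the paper hold striatum as well, it was -0.11.

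The other lower genes of smallest p without overlap, Prl apart, differed by less. Pkig, an inhibitor of protein kinase A, stood at 53.1, 62.6, 55.4 and 52.7 FPKM in WT CON and at 38.2, 33.6, 34.9 and 33.6 FPKM in GFP-BM CON, a log2 fold change of -0.67 ± 0.10 (SE; adjusted p = 0.0717). Rps6ka2, the RSK3 kinase downstream of ERK, had 21.1, 17.5, 18.7 and 17.6 FPKM in WT CON and 11.7, 10.6, 12 and 11.8 FPKM in GFP-BM CON. Erf, a repressor controlled by ERK, had 29.1, 27, 27.6 and 26.4 FPKM and 19.2, 17.3, 17.1 and 17.4 FPKM. None overlapped, and the same held for Pnck (-0.69), a calcium-dependent kinase, Bex1 (-1.01), Meaf6 (-0.49), a subunit of histone acetyltransferases, and the Polycomb protein Cbx8 (-0.68), all log2 fold changes with an adjusted p of 0.0763. Cbx8 ranged from 7.82 to 8.6 FPKM in WT CON and from 4.41 to 5.98 FPKM in GFP-BM CON. Prl, the pituitary hormone prolactin, reached the filter only through WT CON and was low, with 1.69, 0.434, 1.32 and 4.02 FPKM in WT CON and 0, 0, 0 and 0.060 FPKM in GFP-BM CON, where 3 libraries were listed at 0. Rps6ka2 passed 0.05 after the GC and length correction (log2 fold change -0.58; adjusted p = 0.0458 by limma). For 4 of the other genes the value moved by over 1.5 times: the corrected values were -0.36 for Pkig, -0.32 for Erf, -0.39 for Pnck and -0.39 for Cbx8, with adjusted p values of 0.105 to 0.179.

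Among the higher genes, Gabra2 (chr5:70958392-71095849 in GRCm38), the alpha2 subunit of the GABA-A receptor, had 0.474, 0.975, 1.3 and 1.98 FPKM in WT CON and 8.99, 7.42, 26.2 and 5.95 FPKM in GFP-BM CON. Every irradiated library was above every control, although they varied among themselves. The log2 fold change was 3.14 ± 0.49 (SE; adjusted p = 0.0717). It passed 0.05 after the GC and length correction (2.24; adjusted p = 0.0359 by limma), and it was positive in the cortex (1.85) and thalamus (3.41) too. Without that correction it passed 0.05 in a fit of the cortex libraries (adjusted p = 0.0377 by limma), but not in the thalamus (adjusted p = 0.0878). Fyb2, an adaptor protein that reached the filter only through GFP-BM CON, was near 0 in all controls at 0.0535, 0.031, 0.0976 and 0.0943 FPKM. It stood at 2.78, 1.03, 1.51 and 0.651 FPKM in GFP-BM CON, with a log2 fold change of 3.08 ± 0.43 (SE). After the correction its log2 fold change was 3.07. Itgb8, the integrin beta8 that activates TGF-beta, ranged from 0.854 to 1.46 FPKM in WT CON and from 3.07 to 8.17 FPKM in GFP-BM CON. The synaptic adhesion phosphatase Ptprd (1.94 ± 0.33 SE) and the ephrin receptor Epha5 (1.98 ± 0.36 SE) did not overlap either. The same held for the kinesin motor Kif5b (2.53 ± 0.47 SE) and Stxbp5l (2.54 ± 0.43 SE), a regulator of vesicle release. Erbin (2.37 ± 0.44 SE) and Gm6030 (1.81 ± 0.31 SE) were of the same kind, and so was an unnamed gene. The 9 of these higher genes with a known GC content had 38.4% to 46.2% GC, against a median of 50.2% over all genes. The corrected log2 fold changes were 1.83 for Kif5b, 1.1 for Itgb8, 1.29 for Ptprd, 1.11 for Epha5, 1.53 for Erbin and 0.58 for Tpmt. Tpmt, an enzyme that methylates thiopurine drugs, had the smallest fold of these and little spread, with 1.3, 1.5, 1.9 and 1.65 FPKM in WT CON and 2.87, 3.15, 3.0 and 2.95 FPKM in GFP-BM CON.

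The entry with the smallest p was a microRNA gene, Mir568, with 3.54, 4.1, 11.6 and 7.72 FPKM in WT CON and 64.1, 78.8, 109 and 29.1 FPKM in GFP-BM CON (3.37 ± 0.45 SE, adjusted p = 0.0717). Its mature sequence is shown because it names what the row stands for (RefSeq, GRCm38.p6, chr16:43640665-43640684, plus strand; capitals mark the seed, bases 2 to 8).
mmu-miR-568: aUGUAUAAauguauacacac
The hairpin of 83 bases lies within an exon of Zbtb20, a transcription factor of hippocampal neurons, in the GENCODE vM21 annotation (chr16:42875881-43642602), on the same strand. Reads of Zbtb20 and of Mir568 cannot be told apart there, and the value is uncertain as a level of the microRNA. Zbtb20 itself had 0.387, 0.216, 0.389 and 0.721 FPKM in WT CON and 2.03, 0.987, 0.826 and 1.03 FPKM in GFP-BM CON. Its log2 fold change was 1.32 ± 0.46 (SE) and 0.47 after the GC and length correction. It reached the filter only through GFP-BM CON.

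**Figure D4:**
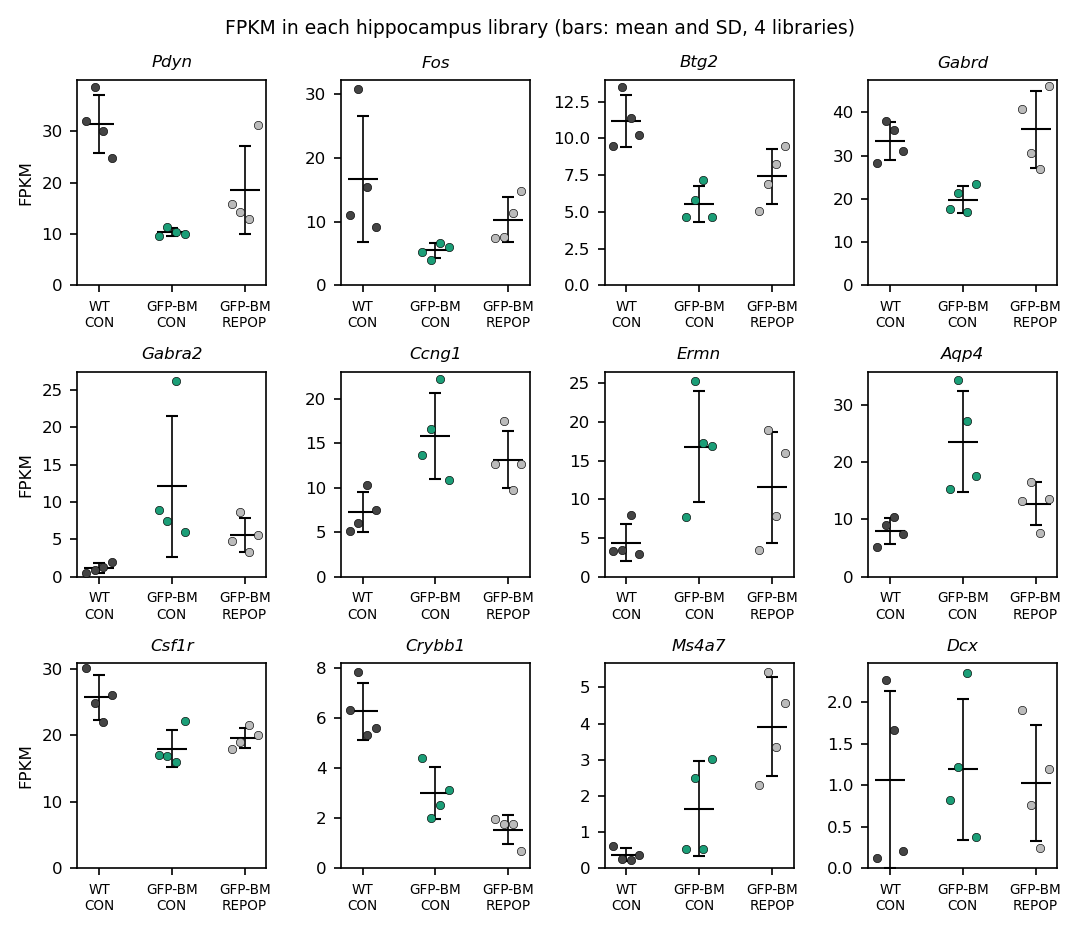
FPKM of 12 genes in each hippocampus library, with bars for the mean and SD of the 4 libraries of a group. The irradiated libraries lay below all controls for Pdyn, Fos, Btg2, Gabrd and Crybb1 and above them for Gabra2, Ccng1 and Aqp4, and the groups overlapped for Ermn, Csf1r, Ms4a7 and Dcx.

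Genes of the DNA damage response had medians near that of all genes 10 months after irradiation. Of 21 p53 targets tested (26 listed), 4 were higher and 2 lower at an unadjusted p under 0.05 (13.4% and 9.59% of all genes), none passed an adjusted p of 0.05, and the median log2 fold change was 0.03, against -0.04 over all genes. Cdkn1a, the p21 arrest protein and best known target, had 6.23, 31.4, 10.4 and 5.67 FPKM in WT CON and 5.95, 6.15, 6.34 and 9.36 FPKM in GFP-BM CON and overlapped (-0.60 ± 0.54 SE, adjusted p = 0.524). Mdm2, which targets p53 for degradation, also overlapped (0.18 ± 0.15 SE, adjusted p = 0.484). Btg2, an antiproliferative target that neuronal activity induces too, was lower in all irradiated libraries, with 9.46, 13.5, 11.4 and 10.3 FPKM in WT CON and 4.64, 5.78, 7.19 and 4.62 FPKM in GFP-BM CON (-1.0 ± 0.21 SE, adjusted p = 0.0763). Bbc3, the death protein PUMA, ranged from 6.84 to 8.74 FPKM in WT CON and from 4.72 to 5.8 FPKM in GFP-BM CON (-0.53 ± 0.13 SE, adjusted p = 0.0763). Ccng1, cyclin G1, went the other way, with 5.19, 6.09, 10.3 and 7.55 FPKM in WT CON and 13.7, 16.6, 22.2 and 10.9 FPKM in GFP-BM CON (1.11 ± 0.26 SE, adjusted p = 0.0763). It is GC-poor at 40.8% GC. After the GC and length correction its log2 fold change was 0.63, while those of Btg2, Bbc3 and Cdkn1a were -0.78, -0.23 and -0.30, with an adjusted p of 0.436 for Bbc3.

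Of 18 DNA repair genes tested, 5 were higher and 3 lower at an unadjusted p under 0.05 (13.4% and 9.59% of all genes), with a median log2 fold change of -0.06. Of the 18, 3 reached the filter only through GFP-BM CON. H2afx, the histone that is phosphorylated at double-strand breaks, was lower in every irradiated library (29.3, 26.8, 28 and 32.5 FPKM against 23.2, 19.6, 21.2 and 22.4 FPKM; log2 fold change -0.43 ± 0.09 SE, adjusted p = 0.0763). Its value was -0.12 (adjusted p = 0.531) after the GC and length correction. Rad50, of the complex that senses breaks, reached the filter only through GFP-BM CON and was low, at 0.318, 0.339, 0.475 and 0.316 FPKM in WT CON and 1.29, 1.17, 3.81 and 1.0 FPKM in GFP-BM CON (1.86 ± 0.42 SE). Lig4, the ligase of end joining, had a log2 fold change of 1.98 ± 0.51 (SE; adjusted p = 0.077). Only 5 of 14 senescence and secretory genes could be tested, since 7 were not in the table (Cdkn2a among them) and 2 were below the filter. Lmnb1, the lamin B1 whose loss marks senescent cells, was lower without overlap (5.21, 6.48, 4.37 and 3.75 FPKM against 2.73, 3.72, 2.93 and 2.89 FPKM; log2 fold change -0.65 ± 0.21 SE, adjusted p = 0.106), with -0.36 (adjusted p = 0.314) after the correction. Among 11 genes of the oxidative stress response 1 was higher and 1 lower at an unadjusted p under 0.05: Gclm, of glutathione synthesis (0.48), and Txnrd1, thioredoxin reductase (-0.22), which had -0.10 and -0.02 after the correction.

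Of 16 genes of newborn neurons tested (18 listed), 12 had a log2 fold change below 0, against 55.0% of all genes, and the median was -0.33. At an unadjusted p under 0.05, 2 were lower and 0 higher, close to the background of 9.59% for lower genes. Of the 16, 2 reached the filter only through WT CON. Marcksl1, which shapes the cytoskeleton of young neurons, did not overlap, with 54.7, 79.7, 76.8 and 76.2 FPKM in WT CON and 32.8, 43.3, 46.8 and 36.6 FPKM in GFP-BM CON (-0.85 ± 0.34 SE, adjusted p = 0.176), and had -0.54 (adjusted p = 0.369) after the GC and length correction. Dpysl5, of growing axons, was at 12.9, 18.5, 10.1 and 5.28 FPKM in WT CON and between 6.05 and 6.63 FPKM in GFP-BM CON (-0.74 ± 0.31 SE, adjusted p = 0.183), with WT CON replicate 4 below the irradiated libraries. Dcx, doublecortin, the usual marker of immature neurons, was measured at 0.128, 2.27, 1.66 and 0.21 FPKM in WT CON and 0.816, 1.22, 2.35 and 0.382 FPKM in GFP-BM CON. The groups overlapped, and the log2 fold change of 0.57 ± 0.82 (SE; adjusted p = 0.704) became -0.33 after the GC and length correction. Neurod1, a factor of granule neurons, ranged from 0.908 to 5.18 FPKM in WT CON and from 3.0 to 7.53 FPKM in GFP-BM CON (1.17 ± 0.56 SE, adjusted p = 0.231). The striatal and dentate RNA of the controls differed between libraries as given above, and its part in these values was not tested gene by gene.

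Genes of neural stem cells had a median log2 fold change of 0.01 over 9 tested. Of these Hes5, a Notch target, was lower at an unadjusted p under 0.05 (-0.78 ± 0.34 SE, adjusted p = 0.202) with -0.47 after the GC and length correction, and Lpar1 had 0.60 ± 0.31 (SE; adjusted p = 0.27). Genes of dividing cells were in part near the limit of detection. Of 20 listed, 5 were not in the table, 7 were below the filter and 8 were tested. Of the 8, 7 had a log2 fold change below 0 (55.0% of all genes), with a median of -0.26. At an unadjusted p under 0.05, 2 were lower and 0 higher (9.59% and 13.4% of all genes). Mki67, below the filter, stood at 0.0167 to 0.178 FPKM in WT CON and 0.0320 to 0.178 FPKM in GFP-BM CON. Plk1, a kinase of mitosis, was lower without overlap (1.35, 1.37, 1.13 and 1.34 FPKM against 0.674, 0.743, 0.833 and 0.951 FPKM; log2 fold change -0.64 ± 0.24 SE, adjusted p = 0.155). So was Mcm5, of the replication helicase (2.51, 2.14, 2.24 and 1.77 FPKM against 1.5, 1.72, 1.32 and 1.66 FPKM; log2 fold change -0.46 ± 0.18 SE, adjusted p = 0.168). The corrected values were -0.33 for Plk1 and -0.18 for Mcm5, with adjusted p values of 0.411 to 0.531. A difference in Mki67 was not tested. The plot of list members sets these lists beside the others.

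**Figure D5:**
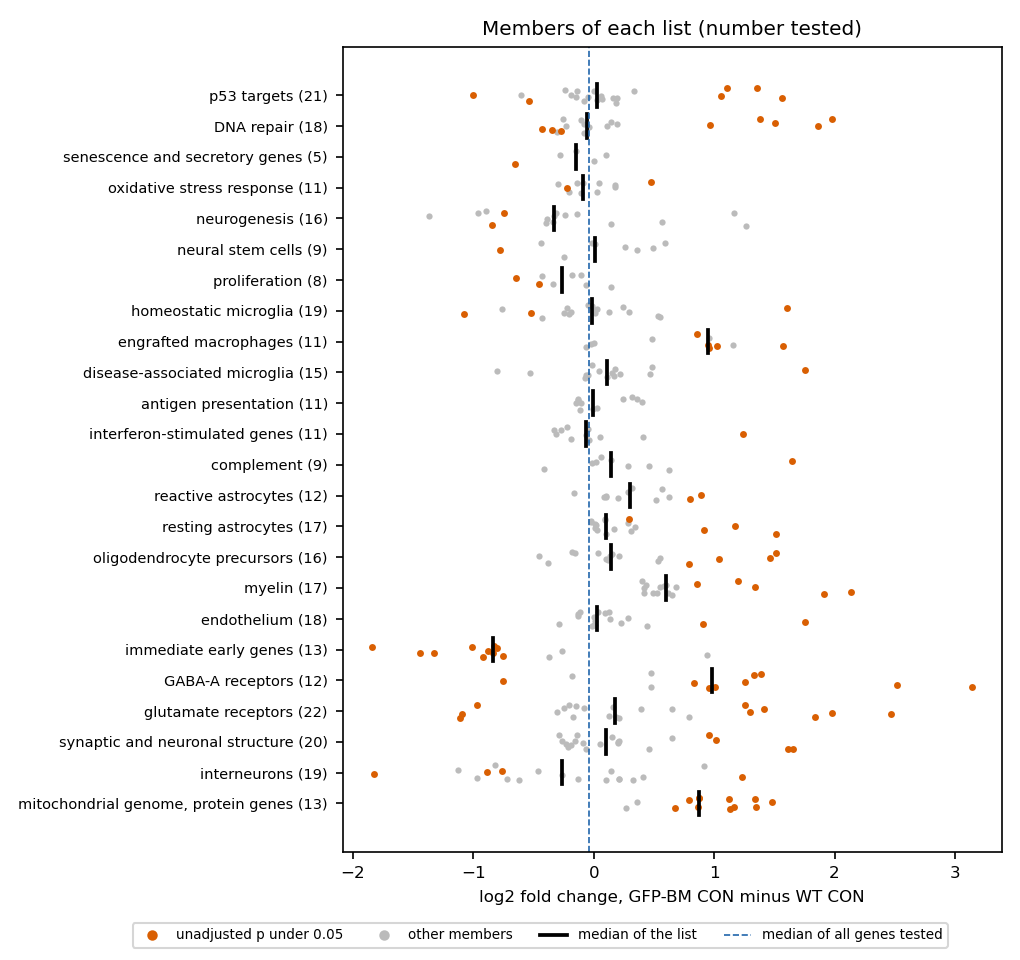
Log2 fold change (GFP-BM CON minus WT CON) of every tested member of 24 gene lists, with the number tested in brackets, a black line at the median of each list and a dashed line at the median of all genes tested (-0.04). Immediate early genes lay to the left (median -0.84), myelin, GABA-A receptor, engrafted macrophage and mitochondrial genes to the right, and most other medians near that of all genes; orange marks an unadjusted p under 0.05.

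Among myeloid genes, those that mark marrow-derived macrophages in the brain had a median log2 fold change of 0.95 over 11 tested (14 listed), with 5 higher and 0 lower at an unadjusted p under 0.05, where 13.4% and 9.59% of all genes were. Of the 11, 2 reached the filter only through GFP-BM CON. Ms4a6b, a membrane protein of macrophages, was low but without overlap, at 0.398, 0.23, 0.337 and 0.322 FPKM in WT CON and 0.881, 0.995, 0.557 and 0.637 FPKM in GFP-BM CON (1.03 ± 0.29 SE, adjusted p = 0.0884), and had 0.37 (adjusted p = 0.501) after the GC and length correction. Apobec1, an RNA-editing enzyme, had 0.963, 0.858, 0.56 and 0.631 FPKM and 1.24, 1.5, 1.11 and 1.95 FPKM (0.86 ± 0.26 SE, adjusted p = 0.101). Ms4a7, which marks border and marrow-derived macrophages, was uneven among the irradiated mice, with 0.527, 2.5, 0.524 and 3.03 FPKM in GFP-BM CON against 0.626, 0.259, 0.233 and 0.368 FPKM in WT CON. Replicates 2 and 4 were high and replicates 1 and 3 were below the highest control (1.58 ± 0.54 SE, adjusted p = 0.128). The mannose receptor Mrc1, which reached the filter only through GFP-BM CON, was highest in replicates 2 and 4 as well (0.535, 1.47, 0.505 and 0.738 FPKM, against 0.347, 0.621, 0.263 and 0.213 FPKM in WT CON, log2 fold change 0.95 ± 0.41 SE). So was Ms4a6c (0.362, 1.1, 0.371 and 0.864 FPKM; log2 fold change 0.95 ± 0.41 SE, adjusted p = 0.194). Corrected for GC content and length they had 0.51 and 0.63. The summed FPKM of the 13 genes of the list in the table was 37.6, 92.3, 34.8 and 99 in GFP-BM CON and 50.2, 45.3, 30.9 and 28.9 in WT CON. In GFP-BM REPOP, after microglial depletion, it was 75.9, 146, 121 and 176. GFP-BM CON replicates 2 and 4 were also the highest of that group for summed thalamus markers (43.3, 95.8, 50.2 and 93.9 FPKM) and for myelin, given below. Thalamus markers summed to 53.7, 30.5, 27.5 and 87.6 FPKM in WT CON, and their part in the macrophage values was not tested. Of the markers that define monocytes, Ccr2 was not in the table, and Ccr1 was under the filter at 0 to 0.104 FPKM in WT CON and 0.0474 to 0.267 FPKM in GFP-BM CON. The list median was 0.65 without GFP-BM CON replicate 2, 0.75 without replicate 4, 0.49 with quantile normalization, 0.50 after the GC and length correction and 0.36 with a pseudocount of 1. The study named part of this list from these samples, so its direction is not independent evidence.

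Homeostatic microglial genes showed no common direction: 9 of 19 were above 0 and 10 below, with a median of -0.01, and 1 was higher and 2 lower at an unadjusted p under 0.05 (13.4% and 9.59% of all genes). Csf1r, the receptor on which microglia depend for survival, was 30.1, 24.8, 21.9 and 26 FPKM in WT CON and 17, 16.8, 16 and 22.2 FPKM in GFP-BM CON. GFP-BM CON replicate 4 exceeded the lowest control, the other 3 lay below all of them, and the log2 fold change was -0.52 ± 0.13 (SE; adjusted p = 0.0763). Crybb1, a crystallin that microglia express, did not overlap, with 6.34, 7.85, 5.31 and 5.59 FPKM in WT CON and 4.4, 2.02, 2.51 and 3.14 FPKM in GFP-BM CON (-1.07 ± 0.31 SE, adjusted p = 0.0927). Both were lower in the cortex and thalamus as well, with log2 fold changes of -0.74 and -1.02 for Csf1r and -1.03 and -1.37 for Crybb1. In a fit of the cortex libraries Csf1r passed 0.05 (adjusted p = 0.00244 by limma) and Crybb1 did not (adjusted p = 0.126). P2ry12, the purine receptor of microglial processes, was the member that was higher at that level, at 1.09, 2.1, 4.43 and 2.07 FPKM in WT CON and 6.41, 7.16, 10.9 and 4.16 FPKM in GFP-BM CON (1.61 ± 0.48 SE, adjusted p = 0.0942). It is one of the GC-poor genes at 38.6% GC, with 0.96 after the correction, where Csf1r had -0.33. The log2 fold changes of some other myeloid genes that the study named or stained were -0.25 ± 0.18 (SE) for Tmem119, -0.19 ± 0.12 (SE) for Cx3cr1 and 0.24 ± 0.27 (SE) for Siglech. They were -0.43 ± 0.25 (SE) for Slc2a5, -0.76 ± 0.55 (SE) for Sall1, 0.13 ± 0.21 (SE) for Aif1 and 0.00 ± 0.24 (SE) for Cd68. The adjusted p values of these 7 genes were 0.323 to 0.993.

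Other immune groups lay close to the background. Of 15 disease-associated microglial genes 1 was higher at an unadjusted p under 0.05 (13.4% of all genes), namely Lpl, lipoprotein lipase (0.798, 1.3, 4.97 and 4.1 FPKM against 7.13, 9.05, 9.31 and 5.48 FPKM; log2 fold change 1.76 ± 0.61 SE, adjusted p = 0.128). The list median was 0.11. Apoe, the main lipid carrier of the brain, was at 1954, 1734, 1158 and 1492 FPKM in WT CON and 1576, 1705, 1476 and 2394 FPKM in GFP-BM CON (0.17 ± 0.21 SE, adjusted p = 0.633). Clec7a, which reached the filter only through GFP-BM CON, and Axl had log2 fold changes of 0.49 ± 0.52 (SE) and -0.06 ± 0.16 (SE), and of 0.00 and 0.17 after the GC and length correction. None of 11 antigen presentation genes had an unadjusted p under 0.05 (median -0.00316; none passed with limma after adjustment). Among 11 interferon-stimulated genes only Ifit2 did (1.24 ± 0.49 SE, adjusted p = 0.166), and of 9 complement genes 1 was higher and 0 lower at that level (median 0.14). Of 4 border macrophage genes tested, Mrc1, given above, was the only one at an unadjusted p under 0.05. Lymphocyte markers were represented by 2 antibody genes, neither at an unadjusted p under 0.05, and Cd3e and Cd8a were not in the table.

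All 17 myelin genes had a log2 fold change above 0, against 45.0% of all genes, with a median of 0.60. Of these 5 were higher at an unadjusted p under 0.05 (13.4% of all genes) and none passed an adjusted p of 0.05 by limma. Ermn stood at 3.32, 3.41, 7.96 and 2.96 FPKM in WT CON and 7.77, 25.4, 17.3 and 16.9 FPKM in GFP-BM CON, where replicate 1 was closest to the controls. Ermn (1.91 ± 0.52 SE, adjusted p = 0.0845) and Tspan2 (1.2 ± 0.38 SE, adjusted p = 0.11), both made by oligodendrocytes, overlapped in GFP-BM CON replicate 1, and had 1.2 and 0.75 after the GC and length correction. The summed level of the list was 1682, 911, 1137 and 881 FPKM in WT CON and 1141, 2174, 1453 and 3300 FPKM in GFP-BM CON, so that WT CON replicate 1 exceeded GFP-BM CON replicates 1 and 3. The median stayed at 0.75 after the GC and length correction, at 0.65 with quantile normalization and at 0.84 without GFP-BM CON replicate 1, but was 0.28 without GFP-BM CON replicate 4. Markers of the adjoining thalamus had a median of 0.59 over 7 genes, and their part in the myelin values was not tested. Oligodendrocyte precursor genes had a median of 0.14, with 4 of 16 higher and 0 lower at an unadjusted p under 0.05 (13.4% and 9.59% of all genes). These included Ptprz1 (2.21, 5.64, 9.0 and 4.68 FPKM against 11.5, 18.7, 23.3 and 7.38 FPKM; log2 fold change 1.52 ± 0.42 SE, adjusted p = 0.0876), a phosphatase of precursors and astrocytes, Tnr (0.79 ± 0.30 SE) and Enpp6 (1.46 ± 0.59 SE), which marks newly forming oligodendrocytes. The corrected values were 0.99 for Ptprz1, 0.41 for Tnr and 0.97 for Enpp6.

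Astrocyte genes had medians that moved with the setting. Gfap, the filament protein of reactive astrocytes, was 122, 73.6, 62.9 and 122 FPKM in WT CON and 95.9, 149.9, 125 and 185 FPKM in GFP-BM CON and overlapped (0.56 ± 0.35 SE, adjusted p = 0.345). S100b had 0.34 ± 0.19 (SE; adjusted p = 0.304). Of 12 reactive genes tested 11 were above 0 (45.0% of all genes), with 2 higher at an unadjusted p under 0.05 (13.4% of all genes), the cytokine receptor Osmr (0.89 ± 0.32 SE) and ceruloplasmin Cp (0.80 ± 0.34 SE). Of the 12, 4 reached the filter only through GFP-BM CON, Osmr among them, and the median of 0.30 was 0.08 with quantile normalization. Serpina3n had 0.63 ± 0.30 (SE; adjusted p = 0.236). Of 17 resting genes 15 were above 0 and 4 higher at an unadjusted p under 0.05. Their median of 0.10 was -0.02 with the striatal covariate and -0.05 without WT CON replicate 3. Aqp4, the water channel of astrocyte endfeet, was without overlap at 5.13, 8.95, 10.5 and 7.52 FPKM in WT CON and 15.3, 34.3, 27.2 and 17.5 FPKM in GFP-BM CON (1.51 ± 0.31 SE, adjusted p = 0.0763). Slc1a2, the main glutamate transporter, overlapped in WT CON replicate 3 (44.3, 83.4, 163.6 and 110.0 FPKM against 199.97, 254, 274 and 124 FPKM; log2 fold change 1.17 ± 0.38 SE, adjusted p = 0.111). Sox9 had 0.29 ± 0.13 (SE; adjusted p = 0.208). Corrected for GC content and length, the values were 0.94 for Aqp4, 0.61 for Slc1a2, 0.31 for Cp, 0.88 for Gfap and 0.44 for Sox9.

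Vessel genes were close to the background, with medians of 0.02 over 18 endothelial genes and 0.04 over 10 genes of pericytes and smooth muscle. At an unadjusted p under 0.05, 2 genes of each were higher and 0 lower (13.4% and 9.59% of all genes): the tight junction scaffold Tjp1 (1.76 ± 0.47 SE), the drug efflux pump Abcb1a (0.91 ± 0.34 SE), Rgs5 (1.26 ± 0.38 SE) and the channel subunit Abcc9 (0.70 ± 0.25 SE), which reached the filter only through GFP-BM CON. Rgs5 and Abcc9 had 0.76 and 0.35 after the GC and length correction. The 18 endothelial genes ranged from -0.29 to 1.76 in log2 fold change and the 10 others from -0.32 to 1.26.

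Immediate early genes, which neurons switch on within minutes of activity, were mostly lower. Of 13 tested, 12 were below 0, 10 were lower and 0 higher at an unadjusted p under 0.05 (9.59% of all genes were lower), 6 did not overlap on the lower side (8.70%), and the median was -0.84. Of the 13, 1 reached the filter only through WT CON, which favours its place among the lower genes. Fos was 11.1, 30.9, 15.5 and 9.19 FPKM in WT CON and 5.19, 4.03, 6.69 and 6.09 FPKM in GFP-BM CON, so that every irradiated library was below every control and WT CON replicate 2 was the highest of all (-1.44 ± 0.35 SE, adjusted p = 0.0763). Fosb had 4.48, 9.11, 6.67 and 4.31 FPKM and 2.81, 2.07, 2.39 and 1.91 FPKM (-1.33 ± 0.27 SE, adjusted p = 0.0763). Dusp1, a phosphatase that ends MAP kinase signals, had 14.9, 20.8, 14.2 and 14.9 FPKM and 8.03, 7.11, 10.5 and 10.7 FPKM (-0.84 ± 0.22 SE, adjusted p = 0.077), and -0.53 after the GC and length correction. The summed level of the 13 genes was 328, 519.7, 413 and 305 FPKM in WT CON and 297, 178, 261 and 206 FPKM in GFP-BM CON. WT CON replicate 4, with few striatal transcripts, was the lowest control at 305 FPKM, close to 297 FPKM in GFP-BM CON replicate 1. The part of striatal RNA in these values was not tested. The median stayed below 0 in each alternative run on the lists, between -0.94 and -0.53, with -0.53 after the GC and length correction and -0.64 with the striatal covariate. Fos was below 0 in the cortex (-0.92) and thalamus (-1.0) too. The sources used here do not give the order in which mice were taken, nor the hour or the handling before.

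Many of these genes answer to cAMP and calcium through CREB, whose binding sites hold the letters TGACGT. Of the 9 members with a promoter in the RefSeq table (GRCm38.p6), 6 held TGACGT on either strand in the 250 bases before the start site, and so did 6.47% of 32851 promoters. A member counted if any of its promoters held the letters. The share over promoters counts each promoter, so the 2 are in unlike units. The longer TGACGTCA, which contains TGACGT, was in 1 member, Dusp1, away from the stretch shown, and in 1.55% of promoters. The stretches of 60 bases around the first match are shown for Fos and Dusp1, the named members that hold one, and for Btg2, which is lower likewise (chr12:85473797-85473856, plus strand; chr17:26508631-26508690, minus strand; chr1:134079289-134079348, minus strand). Capitals mark TGACGT or TGACGTCA.
Fos: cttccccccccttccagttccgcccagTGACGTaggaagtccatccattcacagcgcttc
Dusp1: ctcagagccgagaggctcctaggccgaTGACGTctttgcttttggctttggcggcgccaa
Btg2: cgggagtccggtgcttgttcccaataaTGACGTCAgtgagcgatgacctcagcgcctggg
The letters describe the windows and are no evidence of binding in these samples.

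Subunits of the GABA-A receptor, the main inhibitory receptor of the brain, were mostly higher. Of 12, 8 were higher and 1 lower at an unadjusted p under 0.05 (13.4% and 9.59% of all genes), none passed an adjusted p of 0.05 by limma, and the median was 0.98. Besides Gabra2, Gabrb2 had 1.34, 1.7, 3.25 and 2.74 FPKM in WT CON and 11.4, 13.1, 34.2 and 4.97 FPKM in GFP-BM CON (2.52 ± 0.53 SE, adjusted p = 0.0763). Gabrb1 had 2.14, 2.35, 4.82 and 3.98 FPKM and 9.05, 8.34, 9.05 and 5.0 FPKM (1.26 ± 0.28 SE, adjusted p = 0.0763), but 0.29 (adjusted p = 0.311) after the GC and length correction. The lower member was Gabrd, the delta subunit of tonic inhibition in granule neurons, with 28.2, 38.1, 35.9 and 31.1 FPKM in WT CON and 17.6, 21.4, 16.9 and 23.4 FPKM in GFP-BM CON (-0.75 ± 0.18 SE, adjusted p = 0.0763). All its irradiated libraries were below all controls, and its corrected value was -0.44 (adjusted p = 0.249). The higher subunits are GC-poor (median of the list 42.1% GC), and the median was 0.42 after the GC and length correction, with 1 member, Gabra2, past 0.05. Of 22 glutamate receptor genes 6 were higher and 3 lower at an unadjusted p under 0.05 (13.4% and 9.59% of all genes), with a median of 0.17. The higher ones included the AMPA subunits Gria2 (3.13, 4.44, 9.22 and 8.78 FPKM against 38.8, 23.8, 99.3 and 12.4 FPKM; log2 fold change 2.47 ± 0.57 SE, adjusted p = 0.0763) and Gria3 (1.98 ± 0.57 SE) and the metabotropic receptor Grm5 (1.84 ± 0.52 SE), with corrected values of 1.23 for Gria2, 1.26 for Gria3 and 1.14 for Grm5.

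Each of the 20 synaptic and structural genes of neurons tested overlapped between the groups. Rbfox3, which encodes NeuN, was 65.7, 69.3, 84.6 and 96.1 FPKM in WT CON and 87.8, 75.6, 71 and 61.7 FPKM in GFP-BM CON (-0.09 ± 0.14 SE, adjusted p = 0.737). The postsynaptic scaffold Dlg4 had -0.19 ± 0.13 (SE; adjusted p = 0.399) and the vesicle protein Sv2a -0.29 ± 0.13 (SE; adjusted p = 0.218). Map2, of dendrites, had 8.82, 19.4, 33.4 and 17.2 FPKM in WT CON and 51.9, 63.1, 108 and 27.8 FPKM in GFP-BM CON (1.66 ± 0.49 SE, adjusted p = 0.0934). Map2, Pclo (1.62 ± 0.49 SE) and Snap25 (0.96 ± 0.41 SE) were among 4 of the 20 that were higher at an unadjusted p under 0.05 (13.4% of all genes), and Pclo and Snap25 had 0.99 and 0.18 after the GC and length correction. The median of the 20 was 0.10. Among 19 interneuron genes (median -0.27) 1 was higher and 3 lower at an unadjusted p under 0.05 (13.4% and 9.59% of all genes): the peptide Cort (-0.89 ± 0.29 SE) and the vesicular GABA transporter Slc32a1 (-0.76 ± 0.31 SE) were lower, as was Tac1 (-1.82 ± 0.80 SE), which striatal neurons make as well, and the GABA-making enzyme Gad2 (1.23 ± 0.53 SE) was higher. Of 74 potassium channel genes 13 were higher and 7 lower at an unadjusted p under 0.05, near the 13.4% and 9.59% of all genes (median 0.00). Of the 74, 3 reached the filter only through GFP-BM CON and 1 only through WT CON. Kcnt2, which reached the filter only through GFP-BM CON, had 2.05 ± 0.45 (SE), Kcnip3 -0.46 ± 0.10 (SE) and Kcnj4 -1.01 ± 0.27 (SE), and the first 2 had 1.02 and -0.15 after the GC and length correction. The clock genes Clock (2.06 ± 0.47 SE), Cry2 (-0.39 ± 0.11 SE) and Per1 (-0.57 ± 0.21 SE) did not overlap, and of 13 clock genes 2 were higher and 4 lower at an unadjusted p under 0.05 (13.4% and 9.59% of all genes). The corrected values were 1.17 for Clock, -0.12 for Cry2, -0.37 for Per1, -0.58 for Cort and -0.44 for Slc32a1.

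Markers of the hippocampal fields varied widely between mice. The medians were 0.76 over 9 dentate genes, 0.87 over 5 of CA1, 0.46 over 5 of CA2 and 0.55 over 5 of CA3. At an unadjusted p under 0.05, 0 of the dentate and CA3 genes, 1 of CA1 (Man1a, 1.03 ± 0.34 SE) and 2 of CA2 were higher. Neither of these 2 genes overlapped, but Map3k15 reached the filter only through GFP-BM CON. It had 0.54, 0.313, 0.352 and 0.125 FPKM in WT CON and 1.96, 1.11, 1.29 and 1.52 FPKM in GFP-BM CON (1.92 ± 0.43 SE). Rgs14, which limits plasticity in CA2, had 39.2, 19.1, 39.7 and 36.6 FPKM and 114, 47.4, 49.8 and 53 FPKM (0.93 ± 0.39 SE, adjusted p = 0.188). Prox1, the master factor of granule neurons, ranged from 0.834 to 12.6 FPKM in WT CON alone. All 9 striatal markers were below 0 (median -1.61), among them Penk (-1.77 ± 0.91 SE) and Adcy5 (-0.95 ± 0.53 SE), with none at an unadjusted p under 0.05, and WT CON replicate 4 lay with the irradiated libraries. The median without WT CON replicate 4 was -2.33.

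Transcripts of the mitochondrial genome, a list added after its values were seen, were higher at an unadjusted p under 0.05 for 11 of 13 protein genes (13.4% of all genes). All 13 were above 0 (45.0%), 9 did not overlap (4.52%), and none passed an adjusted p of 0.05 by limma. Their summed FPKM was 32440, 33060, 36450 and 32720 in WT CON and 54430, 54770, 68900 and 41480 in GFP-BM CON, and they took 3.27% to 3.86% of reads in WT CON and 4.43% to 6.38% in GFP-BM CON. COX1, of cytochrome c oxidase, was 10611, 10517, 10408 and 10863 FPKM in WT CON and 15292, 13466, 13012 and 12788 FPKM in GFP-BM CON (0.36 ± 0.21 SE, adjusted p = 0.308), and COX2 had 3415, 3845, 4643 and 3629 FPKM and 7199, 7352, 9390 and 5054 FPKM (0.88 ± 0.27 SE, adjusted p = 0.101). These genes are GC-poor (median 37.1% GC), their median was 0.88 and 0.22 after the GC and length correction, where COX1 turned to -0.19 and COX2 had 0.22. The 90 nuclear genes of the respiratory chain had a median of -0.08, with 3 higher and 2 lower at an unadjusted p under 0.05 (13.4% and 9.59% of all genes). Of 84 cytosolic ribosomal protein genes 82 were below 0, against 55.0% of all genes, by small amounts (median -0.19, 0.04 after the correction). Rps15a (26.5, 26.7, 22.6 and 23.7 FPKM against 19.5, 18, 18.8 and 19.4 FPKM; log2 fold change -0.39 ± 0.11 SE, adjusted p = 0.0904) and Rpl10a (-0.30 ± 0.11 SE) were among the 5 that were lower at an unadjusted p under 0.05 (9.59% of all genes), with -0.63 and -0.10 after the correction.

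Of 77 splicing genes, 10 were higher and 21 lower at an unadjusted p under 0.05 (13.4% and 9.59% of all genes), and 4 were higher and 23 lower without overlap (4.52% and 8.70%). Snrpc, of the U1 particle, was lower (35, 39.3, 35.7 and 40.4 FPKM against 25.5, 23.6, 22.1 and 28 FPKM; log2 fold change -0.60 ± 0.11 SE, adjusted p = 0.0763). So was U2af2, which recognises the 3′ splice site (-0.39 ± 0.09 SE, adjusted p = 0.0763), while Prpf39 was higher (2.27 ± 0.49 SE, adjusted p = 0.0763), and these had -0.09 and 1.47 after the GC and length correction. Of 46 cilium genes 7 were higher and 6 lower at that p, near the background, with Ift74 (2.15 ± 0.50 SE) and Kif3a (1.32 ± 0.43 SE) among the higher. Of 40 collagen and laminin genes 3 were higher and 0 lower, below the background of 13.4% and 9.59%. Of the 40, 8 reached the filter only through GFP-BM CON, among them Col11a1 (0.225, 0.361, 0.186 and 0.21 FPKM against 2.36, 1.53, 3.25 and 0.746 FPKM, log2 fold change 2.43 ± 0.46 SE) and Col19a1 (2.3 ± 0.46 SE). The count through WT CON was 5. Of 64 heat shock and chaperone genes 9 were higher and 5 lower, near the background, with Dnajc21 (2.01 ± 0.52 SE) and Dnajc3 (1.24 ± 0.33 SE). Dnajc3 had 0.81 after the correction. The medians of these 4 lists lay between -0.16 and 0.01.

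Whether the difference was particular to the hippocampus was tested as the difference between its log2 fold change and that of another region, in a fit of the 34 libraries that treated the mouse as a correlated block. By limma-trend 0 genes passed for the hippocampus against the cortex, where the smallest adjusted p was 0.217 and 1435 genes were under 0.05 before adjustment. For the hippocampus against the thalamus 0 genes passed as well, with a smallest adjusted p of 1 and 367 genes under 0.05 before adjustment, and fits without the block called 0 genes as well. Without WT CON replicate 4, 7 genes differed between hippocampus and cortex. The spread between replicates was larger in the hippocampus, where the residual SD of log2 values had a median of 0.278, than in the cortex (0.113) or thalamus (0.216). Genes described above with log2 fold changes of the same sign in all 3 regions included Btg2 (-0.93 in the cortex and -0.57 in the thalamus). Others were Gabra2 (values above), Aqp4 (0.17 and 1.05), Itgb8 (0.72 and 2.36), Kif5b (0.58 and 2.43), Gria2 (1.47 and 2.96) and Bex1 (-0.36 and -0.61). Pkig (0.08 and -0.26) and Ccng1 (-0.07 and 1.15) were among those whose sign differed between regions. These are examples and not a full list. Nnt, a mitochondrial transhydrogenase, was higher without overlap in the hippocampus (7.12, 5.71, 4.95 and 5.73 FPKM against 7.96, 8.23, 9.0 and 10.1 FPKM; log2 fold change 0.58 ± 0.14 SE, adjusted p = 0.0763). Wdfy1 was higher likewise (4.33, 8.17, 8.26 and 6.38 FPKM against 10.7, 12.4, 11.3 and 17.3 FPKM; log2 fold change 0.94 ± 0.22 SE, adjusted p = 0.0763). Their cortex values were 0.60 and 0.99 and their thalamus values 0.53 and 1.44. After the GC and length correction in the hippocampus, Nnt had 0.78 (adjusted p = 0.0359 by limma) and Wdfy1 0.78 (adjusted p = 0.0754). Entpd4, which has a near-identical copy in the mouse genome, overlapped in GFP-BM CON replicate 1 (-0.62 ± 0.17 SE, adjusted p = 0.0858), with -0.35 after the GC and length correction.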

How the data were processed

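RNA of dissected mouse hippocampus was sequenced by the study. The authors deposited 1 table of FPKM values for 16389 genes in 34 libraries. The submitters' processing notes name STAR, featureCounts, edgeR and limma and the mm10 build, and versions are not given in the sources used here. FPKM values are scaled to gene length and depth, so a gene that takes more reads in 1 library can lower the others there. The deposited FPKM values of each library were whole multiples of 1 read (100.0% of values within 0.02 of a whole number), which gave depths of 17085018 to 26010509 reads and the reads for an alternative test. The deposited depth scale departed from these total reads by relative factors of 0.929 to 1.10 over the 34 libraries, so it was not total reads alone.

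Samples were grouped by their labels. The 14167 genes with an FPKM of at least 1 in 3 or more of the 12 hippocampus libraries were tested on log2(FPKM + 0.1), a scale that understates the fold of low genes, with limma 3.58.1 (R 4.3.3; moderated test with a mean trend, 3 groups in 1 fit, Benjamini-Hochberg adjustment over all genes tested, threshold 0.05). All adjusted p values in the text are from limma. The test recovered known changes on simulated data of independent genes without GC or tissue differences between libraries. The libraries here differ in both, so that check does not cover them. Single library measures were compared by exact permutation (scipy 1.17.1). GC content and length were those of the longest GENCODE vM21 transcript of each gene. The correction subtracted from each library a smooth curve of both (splines with 5 degrees of freedom). Gene IDs matched the RefSeq table for 15943 genes.

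The genes named were drawn from the 12 of smallest p in each direction without overlap between the 2 groups of 4, the 3 of each list with the smallest p, and genes the study stained or named. Some genes that this rule selects are not reported here. Cdkn1a, Mdm2, Gabrd, Ttr, COX1, COX2, Nnt, Wdfy1, Entpd4, Zbtb20 and Tac1 were added after their values were seen. The members and lists were chosen with earlier results of these data known. Alternatives changed the pseudocount, filter, scaling, libraries, trend, weights and block, and covariates for striatal and choroid plexus RNA were added after seeing the data.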

Additional observations from a re-analysis of the deposited data

Results flagged for a closer look

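Of 270 groups of 4 libraries tested, each a named gene or marker sum in 1 group, 22 had a library far from the other 3 by Dixon's criterion. Chance gives about 1 in 20, or 13.5 groups here. No explanation was tested for any of them.

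Replicate 3 of GFP-BM CON was the highest of its group for Gabra2 (26.2 FPKM), Rad50 (3.81 FPKM) and Ift74 (7.07 FPKM), and had the lowest GC measure (0.529). Replicate 1 of GFP-BM CON was highest for Rgs14 (114 FPKM), Erf (19.2 FPKM) and Zbtb20 (2.03 FPKM). Replicate 4 of GFP-BM CON was highest for Csf1r (22.2 FPKM), Cdkn1a (9.36 FPKM) and Prl (0.06 FPKM, with the other 3 listed at 0).

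Among the controls, WT CON replicate 3 was highest for Ermn (7.96 FPKM), Tspan2 (17.4 FPKM), Dnajc3 (7.75 FPKM), Rad50 (0.475 FPKM) and the sum of mitochondrial protein genes (36400 FPKM), and lowest for Tmem119 (9.84 FPKM) and Plk1 (1.13 FPKM). WT CON replicate 2 was highest for Dusp1 (20.8 FPKM) and lowest for Rgs14 (19.1 FPKM). WT CON replicate 1 was lowest for Marcksl1 (54.7 FPKM) and highest for the choroid plexus sum (6580 FPKM), of which Ttr, the transthyretin made there, held 6320 FPKM. WT CON replicate 4 was lowest for Lpar1 (4.21 FPKM).

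Reads of Y-linked genes, which no comparison used, stood at 1380 in GFP-BM CON replicate 1 and at 0 to 3 in the other hippocampus libraries.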

How the results depend on the processing

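The count of 0 genes at an adjusted p under 0.05 became 2 with the expression filter over all 34 libraries, 1 with only the 8 libraries compared, 1 without a mean trend, 25 after the GC and length correction, 2577 in a fit of all 9 groups, 2640 with array quality weights (weights 0.506 to 6.87) and 2 with the striatal covariate, and it was 950 at an adjusted p under 0.10. Leaving out 1 library gave 0 to 877, and 508 genes were shared by the calls without WT CON replicate 3 and without GFP-BM CON replicate 4. The cause of these shifts was not tested. For the hippocampus against the cortex, leaving out 1 library gave 0 to 7. Of 127 named genes 118 kept their direction in every alternative that tested them, up to 30 per gene. Many were named for a small p or for no overlap in these same libraries. A stable direction was thus favoured in advance and is no separate support. After the GC and length correction Gclm (-0.10), Dcx (-0.33), Tmem119 (0.07), Axl (0.17), Rbfox3 (0.23) and COX1 (-0.19) turned. With quantile normalization Aif1 (-0.01), Cd68 (-0.07), Apoe (-0.24) and Rbfox3 (0.02) did, as did Cd68 with voom (-0.06) and with the choroid plexus covariate (-0.07). Without 1 library Cd68 ranged from -0.19 to 0.10, Axl from -0.21 to 0.02 and Rbfox3 from -0.17 to 0.01. Of 46 lists, 22 medians kept their sign in each alternative run on lists. A fit with the replicate number as a block called 0 genes, with 2554 at an unadjusted p under 0.05 and 0 at an adjusted p under 0.10. The numbers are shared by name only: the deviations of same-numbered libraries correlated at -0.34, 0.05, 0.52 and -0.34, so they were not treated as pairs. Low genes such as Mki67 are limited by depth.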
